A study of Mus musculus with 70 samples.

Results

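The comparison described here set APP23 transgenic mice (TG) against their non-transgenic littermates (NTG), all fed ad libitum (ALF), in hippocampus. Its 35 libraries, 19 TG and 16 NTG, were taken from the 70 libraries of the series by genotype and feeding as the sample labels give them. APP23 mice, labelled B6.Cg-Tg(Thy1-APP)3Somm/J, carry a human APP transgene, mutated as in a familial form of Alzheimer disease and driven by the murine Thy1 promoter, which is active mainly in neurons. The other libraries came from mice of both genotypes whose food was limited to part of the dark phase (time-restricted feeding, TRF). Each library came from the hippocampus of one hemibrain of one animal aged 10 to 13 months, and its poly-A RNA was read as pairs of 150 bases. The mice were singly housed in a light-dark cycle, and both genotypes went through the same behavioural protocols. They were killed at Zeitgeber time (ZT) 0, which is lights on, or at ZT6, ZT12, which is lights off, or ZT18. The NTG group held 7, 1, 6 and 2 animals at these 4 times and the TG group 6, 4, 6 and 3. Both sexes were used, and the labels give no sex for a single sample.

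Amyloid precursor protein is cut by secretases into amyloid-beta, which is deposited as plaques in hippocampus and cortex of APP23 mice with age. Microglia and astrocytes around plaques are known to switch on lysosomal, complement and interferon genes. Neurons take much of their cholesterol from astrocytes, and cells low in sterol activate SREBP-2, the transcription factor that raises the genes of cholesterol synthesis. Activity-regulated genes, the phosphatases that restrain the kinase ERK, and locally activated thyroid hormone are other known layers of gene control in this tissue.

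Values are normalized counts, that is read counts divided by one factor per library. Differences are TG minus NTG on the log2(normalized count + 1) scale with their standard error (SE), from limma's moderated test with time of sacrifice as a covariate, and a gene was called at a Benjamini-Hochberg adjusted p under 0.05. Of 14260 genes, 24 were called, 0.168% of those tested. TG animals were higher in 15 of them (0.105%) and lower in 9 (0.0631%). At an unadjusted p under 0.05, 579 genes were higher (4.06%) and 392 were lower (2.75%). The difference was positive in 48.3% of all genes, with a median of -0.003. With libraries scaled to the same total, 22 genes were called, 16 higher and 6 lower, and 63.6% of all differences were positive.

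Estimated reads per library ran from 27.9 to 43.4 M in NTG (median 35.8 M) and from 29.6 to 43.4 M in TG (median 37.4 M). In mean correlation with the others, 4 libraries stood apart, all from ZT0: TG_ALF_16, TG_ALF_5, NTG_ALF_1 and NTG_ALF_107, named by group and animal number. Without them 35 genes were called, 17 higher and 18 lower, and 22 of the 24 genes were among them. Dusp4 and Dusp6 were not.

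Thy1 and App, the mouse genes related to the transgene, were examined first. Thy1 (chromosome 9, 44043384 to 44048579, GRCm38), which encodes a surface glycoprotein of neurons and whose promoter drives the transgene, measured 14727 to 28175 normalized counts in NTG (median 25436). In TG it measured 101986 to 169926 (median 138071). Every TG animal was above every NTG animal, in accord with the labels. The difference was 2.53 ± 0.07 (SE; limma adjusted p = 2.2e-25, n = 19 and 16). The counts do not separate reads of the mouse gene from reads of Thy1 sequence in the transgene. App, the mouse gene, was between 47704 and 65006 in NTG (median 56596) and between 49359 and 66400 in TG (median 58241). How many reads of the human transgene were assigned to App cannot be told from the counts. The App ranges overlapped almost fully, and its difference was 0.05 ± 0.05 (limma adjusted p = 0.999).

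Cholesterol synthesis held 10 of the 15 higher genes. The groups were fully separate in 3 of 14260 genes (0.021%), namely Thy1, Sqle, which makes squalene epoxide, and Fdft1, the squalene synthase. Sqle measured 2273 to 3149 in NTG (median 2769) and 3333 to 4339 in TG (median 3818), a difference of 0.43 ± 0.04 (limma adjusted p = 7.5e-09). Fdft1 measured 2651 to 4048 in NTG (median 3587) and 4203 to 5804 in TG (median 4841). Its difference was 0.47 ± 0.05 (limma adjusted p = 5.8e-08). Fdps, which makes farnesyl diphosphate, was higher by 0.41 ± 0.05 (limma adjusted p = 1.8e-06). Over the 22 enzymes of the list 21 differences were positive and the median was 0.22. The remaining paragraphs concern the genes beyond this pathway.

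Some genes that carry sterol within the cell or control SREBP rose as well. Stard4, a cytosolic sterol carrier, measured 570 to 931 in NTG (median 688) and 837 to 1722 in TG (median 1088). Only the lowest TG animal fell within the NTG range, and the difference was 0.62 ± 0.07 (limma adjusted p = 1.4e-06). Insig1 (chromosome 5, 28071363 to 28078662), which holds SREBP in the endoplasmic reticulum and is itself an SREBP target, measured 2134 to 3391 in NTG (median 2955) and 2792 to 4571 in TG (median 3696). Here 12 of 19 TG animals exceeded the highest NTG animal, with a difference of 0.34 ± 0.06 (limma adjusted p = 0.0050).

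Of 13 measured genes of sterol uptake and SREBP control 3 were called, Stard4 and Insig1 among them. In that list 11 differences were positive, and the median was 0.05 against -0.003 over all genes. Srebf2, which encodes SREBP-2, had a difference of 0.15 ± 0.06 that did not pass the test (limma adjusted p = 0.60). Among 14 genes of cholesterol export and carriers none was called and the median was 0.02. Apoe, the main lipoprotein of astrocytes, had a difference of -0.09 ± 0.08, and Abca1, which loads lipid onto it, 0.09 ± 0.07.

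Idh1 (chromosome 1, 65158616 to 65186500), the cytosolic isocitrate dehydrogenase that supplies NADPH, was the fifteenth gene higher in TG. It measured 1315 to 2403 in NTG (median 1864) and 1730 to 2911 in TG (median 2173). The ranges overlapped widely, although 18 of 19 TG animals were above the NTG median. The difference was 0.32 ± 0.06 (limma adjusted p = 0.0026).

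The 9 lower genes came from several pathways, and the plot of their values by animal shows that TG and NTG overlapped in each. Nrarp, a Notch target that dampens Notch signalling in a feedback loop, had the smallest p-value of them. It lies on chromosome 2 (25180758 to 25183339). Nrarp measured 691 to 958 in NTG (median 813) and 403 to 766 in TG (median 602). Of the 19 TG animals 14 lay below the lowest NTG animal. The difference was -0.47 ± 0.06 (limma adjusted p = 7.5e-06). Of 22 measured Notch pathway genes Nrarp was the only one called. In that list 12 differences were positive and the median was 0.00. Among the other members Maml2, a coactivator of the Notch complex, had -0.20 ± 0.08, Notch2, a receptor, 0.19 ± 0.10, and Mfng, a glycosyltransferase that modifies Notch receptors, 0.18 ± 0.10.

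**Figure D1:**
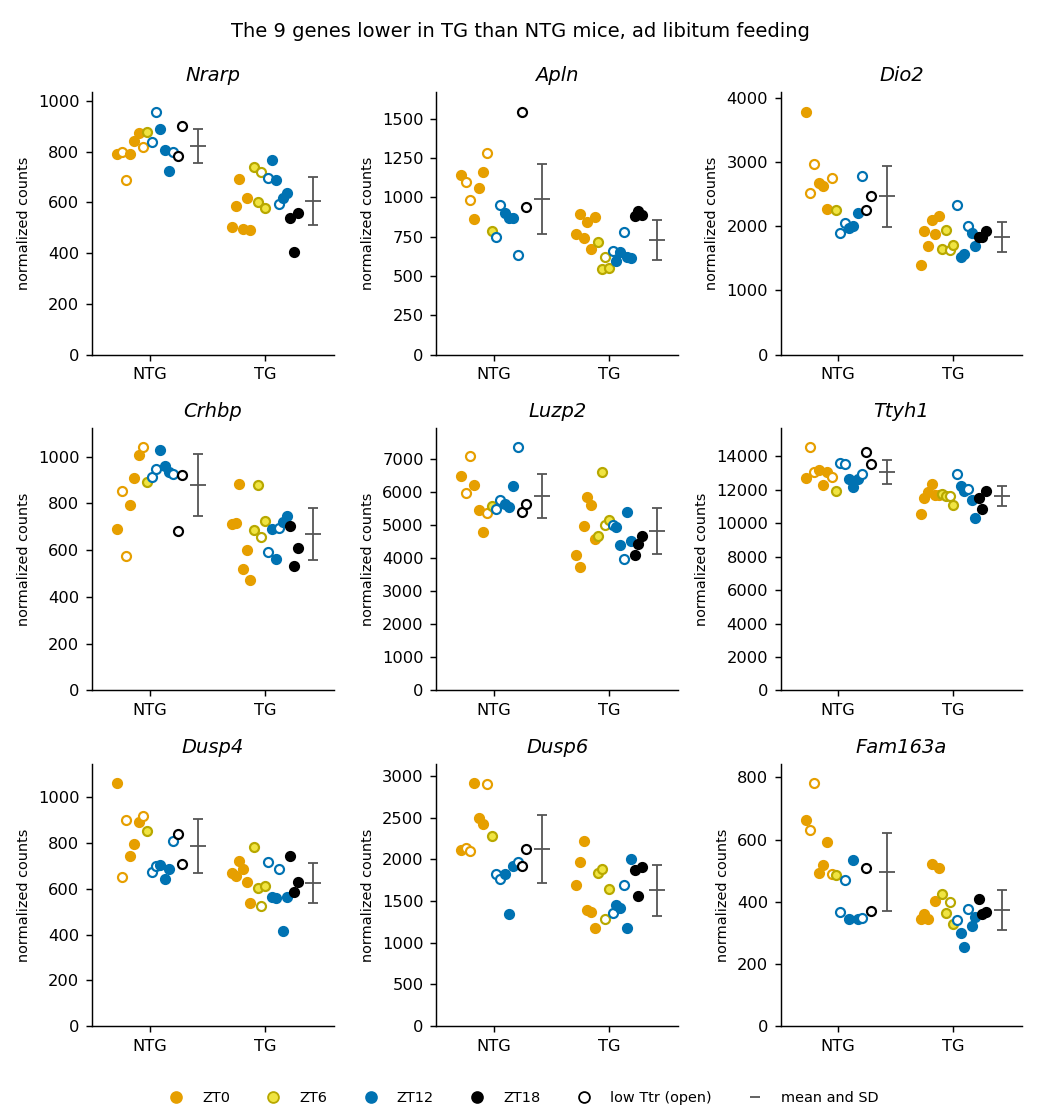
Normalized counts (y axis, from 0) of the 9 genes lower in TG, 1 point per animal, coloured by time of sacrifice, open where the Ttr level was low, with mean and SD beside each group. In each panel the TG animals sit lower with partial overlap; for Nrarp, 14 of 19 TG animals lie below all NTG animals.

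Apln encodes apelin, a peptide ligand made by endothelial and other cells, and lies on chromosome X (48025146 to 48034853). Apln measured 633 to 1544 in NTG (median 944) and 544 to 912 in TG (median 715). All 19 TG animals were below the NTG median, and 9 of 16 NTG animals exceeded the highest TG animal. The difference was -0.39 ± 0.06 (limma adjusted p = 6.5e-04). Of 16 measured vascular ligands and receptors it was the only gene called, and the list divided evenly with 8 positive and 8 negative differences. Among endothelial markers 10 of 14 were positive, their median was 0.04, and their summed level ran from 8111 to 18419 in NTG and from 11089 to 16659 in TG.

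Dio2, the deiodinase that turns thyroxine into active thyroid hormone in astrocytes, lies on chromosome 12 (90724552 to 90738438). It measured 1888 to 3781 in NTG (median 2366) and 1401 to 2328 in TG (median 1829). Here 11 of 19 TG animals lay below the lowest NTG animal. The difference was -0.40 ± 0.07 (limma adjusted p = 0.0016). Among 19 genes of thyroid hormone handling and response Dio2 was the only one called, with a list median of -0.04. Klf9, a thyroid hormone target, had -0.08 ± 0.04 (limma adjusted p = 0.64).

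Crhbp encodes the binding protein that sequesters corticotropin-releasing hormone and is made in hippocampus by interneurons. It lies on chromosome 13 (95431371 to 95444924). Crhbp measured 574 to 1039 in NTG (median 916) and 470 to 883 in TG (median 691). Every TG animal was below the NTG median, and 11 of 16 NTG animals exceeded the highest TG animal. The difference was -0.42 ± 0.08 (limma adjusted p = 0.0050). Of 18 interneuron markers it was the only one called, 10 were positive and their median was 0.02. Of 9 measured genes of the CRH system and corticosteroid receptors 7 had negative differences and the median was -0.08. The largest difference in the list was positive, that of the receptor Crhr2, at 0.56 ± 0.25 (limma adjusted p = 0.65), and 0.11 with the Ttr level described further down as a covariate. Hsd11b1, which regenerates corticosterone, had -0.30 ± 0.08 (limma adjusted p = 0.23) and passed the test only without the libraries that stand apart (-0.28 ± 0.06, limma adjusted p = 0.037).

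The phosphatases Dusp4 and Dusp6, which are induced by ERK and switch it off, were both lower. Dusp4 (chromosome 8, 34807297 to 34819894) measured 641 to 1060 in NTG (median 769) and 416 to 784 in TG (median 628). Its difference was -0.33 ± 0.07 (limma adjusted p = 0.020), and 18 of 19 TG animals were below the NTG median. Dusp6 (chromosome 10, 99263231 to 99267489) measured 1348 to 2911 in NTG (median 2105) and 1174 to 2222 in TG (median 1640), with only 3 TG animals below the NTG range. Its difference was -0.39 ± 0.08 (limma adjusted p = 0.024). These calls depended on single animals. The Dusp4 call was lost without NTG_ALF_301, and that of Dusp6 without NTG_ALF_301, TG_ALF_16, TG_ALF_19 or TG_ALF_234, with adjusted p up to 0.062 for each gene. Without the libraries that stand apart the adjusted p was 0.072 for Dusp4 and 0.058 for Dusp6.

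Dusp4 and Dusp6 were the 2 called members of 15 genes of ERK feedback, of which 13 had negative differences, with a median of -0.16. By unadjusted p under 0.05, 11 of the 15 were lower, against 2.75% of all genes. Spry4, another ERK inhibitor, measured 403 to 871 in NTG (median 545) and 251 to 599 in TG (median 428), a difference of -0.35 ± 0.10 (limma adjusted p = 0.27). Etv5, a transcription factor induced by ERK, had -0.21 ± 0.06 (limma adjusted p = 0.29). Immediate early genes, which neurons induce with activity, were negative in 29 of 31 with a median of -0.19, and none was called. Trib1, a pseudokinase, had -0.38 ± 0.09 (limma adjusted p = 0.095), Nr4a3, an orphan nuclear receptor, -0.29 ± 0.08, and Bdnf, a neurotrophin, -0.19 ± 0.07.

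The last 3 lower genes have no shared pathway. Luzp2 (chromosome 7, 54835498 to 55268885), a leucine zipper protein gene, measured 4795 to 7334 in NTG (median 5618) and 3732 to 6587 in TG (median 4660). Its difference was -0.30 ± 0.06 (limma adjusted p = 0.015). Ttyh1 (chromosome 7, 4119408 to 4136708), a membrane protein gene of astrocytes, measured 11916 to 14535 in NTG (median 12998) and 10341 to 12918 in TG (median 11670). All 19 TG animals lay below the NTG median of Ttyh1, and 13 lay below the lowest NTG animal. The Ttyh1 difference was the smallest of the 9, -0.16 ± 0.03 (limma adjusted p = 0.015). Fam163a (chromosome 1, 156075966 to 156205026) measured 344 to 781 in NTG (median 491) and 255 to 521 in TG (median 362), a difference of -0.38 ± 0.08 (limma adjusted p = 0.029). The Fam163a call was lost in 11 of the 35 fits that left out 1 animal, with adjusted p up to 0.077. The animals were TG_ALF_13, TG_ALF_115, TG_ALF_117, TG_ALF_124, TG_ALF_127, TG_ALF_234, NTG_ALF_22, NTG_ALF_101, NTG_ALF_122, NTG_ALF_301 and NTG_ALF_325.

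Other settings ended several of these calls while the direction stayed. With only the animals of ZT0 and ZT12, 16 genes were called, 13 higher and 3 lower, and 13 of the 24 were among them. Of the 9 lower genes Nrarp (-0.42, limma adjusted p = 0.0013) and Apln (-0.39, limma adjusted p = 0.013) stayed called. The calls of Dio2, Crhbp, Luzp2, Ttyh1, Dusp4, Dusp6 and Fam163a ended there, as did those of Idh1 and Insig1, with limma adjusted p from 0.059 to 0.36 for Idh1. Libraries scaled to the same total ended the calls of Ttyh1, Dusp6 and Fam163a (limma adjusted p = 0.17, 0.092 and 0.080). Ttyh1 also missed the threshold with all 4 groups in the fit (limma adjusted p = 0.072). Dusp6 and Fam163a missed it without a term for time (0.052 and 0.16), and Dusp4 and Dusp6 with the series of animal numbers as a factor (0.10 and 0.13).

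Of 14 astrocyte markers 13 had negative differences, with a median of -0.14, and none was called. Their summed level ran from 231215 to 332223 in NTG (median 252556) and from 206840 to 297798 in TG (median 226888). Dio2, Ttyh1 and Luzp2, which astrocytes express, were lower in TG as well, and the part of this list in those results was not tested. In bulk tissue fewer cells of a type and less RNA per cell cannot be told apart. Acsbg1, a fatty acyl-CoA synthetase, measured 5306 to 8190 in NTG (median 6097) and 4603 to 6626 in TG (median 5253). Its difference was -0.20 ± 0.05 (limma adjusted p = 0.095). Fgfr3, a growth factor receptor, had -0.18 ± 0.04 (limma adjusted p = 0.12), and Aldoc, an aldolase, -0.17 ± 0.06 (limma adjusted p = 0.44). Without the 4 libraries that stand apart 14 of 14 were negative and Acsbg1 and Aldoc passed the test.

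All 13 markers of oligodendrocyte precursors had negative differences too, with a median of -0.10 and none called. Neu4, a sialidase, measured 306 to 527 in NTG (median 373) and 254 to 372 in TG (median 343), a difference of -0.25 ± 0.07 (limma adjusted p = 0.24). Sox10, a transcription factor of the oligodendrocyte lineage, had -0.18 ± 0.08. Of 15 myelin genes 9 were positive, with a median of 0.01. Markers of dentate granule cells were negative in 10 of 12 with a median of -0.11, again with none called. Of these 12, 6 were positive at ZT0 (median -0.01) and 1 at ZT12 (median -0.23).

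Microglial and plaque-related lists leaned the other way, and none of their genes passed the test. Microglial markers were positive in 12 of 13 (median 0.07). Csf1r, the receptor microglia need to survive, had 0.14 ± 0.06, and Olfml3, a secreted microglial protein, 0.19 ± 0.07. Plaque-induced genes were positive in 46 of 54 (median 0.10). Cd68, a lysosomal glycoprotein of phagocytes, measured 221 to 346 in NTG (median 281) and 256 to 440 in TG (median 307.1), a difference of 0.22 ± 0.08 (limma adjusted p = 0.45). Osmr, the oncostatin M receptor, went against its list with -0.32 ± 0.09 (limma adjusted p = 0.26).

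Interferon response genes were positive in 21 of 22 with a median of 0.21, and complement genes in 12 of 15 with a median of 0.19. In the interferon list Ifi35 had 0.26 ± 0.11 (limma adjusted p = 0.64), and Gbp2, a guanylate-binding protein of the same response, 0.27 ± 0.12. Reactive astrocyte genes were positive in 20 of 24 with a median of 0.10. Vim, an intermediate filament protein, had 0.16 ± 0.06 (limma adjusted p = 0.60). The core clock list was negative in 17 of 20 (median -0.07). Its median was -0.15 at ZT0 and 0.01 at ZT12, where 12 of 20 were positive. Per2, a repressor of the clock, had -0.22 ± 0.08 (limma adjusted p = 0.51).

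**Figure D2:**
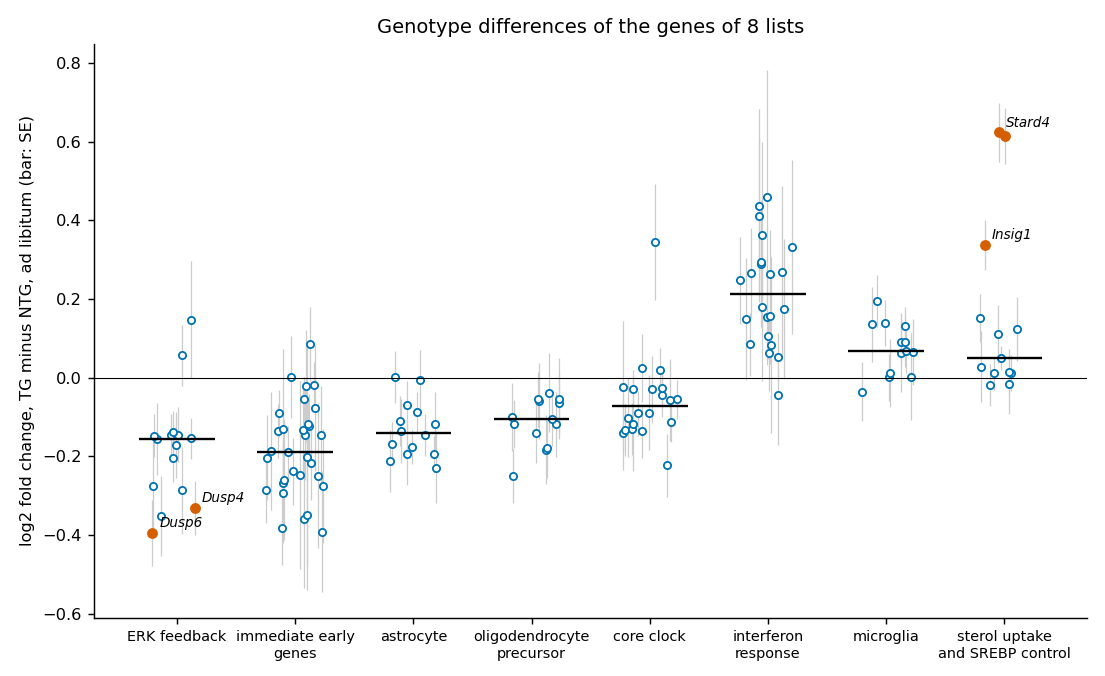
Log2 fold change, TG minus NTG (y axis), of each measured gene in 8 lists, with SE as a grey bar, the list median as a black line and called genes as filled orange points. The ERK feedback, immediate early, astrocyte, precursor and clock medians lie below 0 and the interferon, microglial and sterol uptake medians above it; 5 of the genes shown were called.

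Promoters are shown for called genes because several called genes of one pathway moved together. RefSeq start sites (GRCm38.p6) matched 11019 of 14260 genes and 16 of the 24 called ones, and windows of 300 bases, 250 before the start and 50 after, were searched on both strands. Each stretch below is upstream of the start, 5′ to 3′ on the gene's strand. Capitals mark the motif given with the stretch's location in the next paragraph, and matches to other searched motifs are in lower case. Hmgcs1, chosen for its match, and Insig1 represent the genes that rose and Nrarp and Dio2 the genes that fell.
Hmgcs1: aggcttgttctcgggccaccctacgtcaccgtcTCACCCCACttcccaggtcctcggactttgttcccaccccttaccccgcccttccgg
Insig1: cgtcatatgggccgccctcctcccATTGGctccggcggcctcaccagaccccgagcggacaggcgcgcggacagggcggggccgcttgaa
Nrarp: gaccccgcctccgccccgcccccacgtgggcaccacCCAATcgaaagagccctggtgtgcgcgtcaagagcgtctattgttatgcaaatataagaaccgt
Dio2: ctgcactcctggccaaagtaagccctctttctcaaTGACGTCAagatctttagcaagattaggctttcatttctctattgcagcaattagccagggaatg

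The Hmgcs1 stretch is chr13:119690181-119690270 on the plus strand, and its match to the sterol regulatory element core TCACNCCAC begins 137 bases before the start. The core was found in 1 of 8 matched genes that rose (Thy1 left out), in 1 of 8 that fell, Fam163a, and in 1.35% of all matched genes. The Insig1 stretch is chr5:28071172-28071261 (plus strand) and the Nrarp stretch chr2:25180628-25180727 (plus strand), each with a CCAAT box, printed as ATTGG where it lies on the opposite strand, 216 and 94 bases before the start. CCAAT was found in 7 of 8 genes that rose, in 4 of 8 that fell and in 42.5% of all. The Dio2 stretch is chr12:90739069-90739168 (minus strand) with a cyclic AMP response element, TGACGTCA, 95 bases before the RefSeq start. That start lies upstream of the Dio2 location given above, which is from GENCODE. Among the 16 called genes with a window no other had this match, which was found in 3.46% of all matched genes. The site GTGGGAA of the Notch effector RBPJ was in 2 of 8 genes that rose, Hmgcs1 and Nsdhl, in 0 of 8 that fell and in 7.45% of all. A match describes these letters only.

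Ttr, which encodes transthyretin, is made in brain almost only by choroid plexus, a tissue that borders the hippocampus and can come along in dissection. Its level fell into 2 clusters. On the log2 scale the lower cluster reached 11.4 and the higher began at 14.9. The level was low in 8 of 16 NTG and in 3 of 19 TG animals. Ttr measured 128 to 156516 normalized counts in NTG (median 16823) and 358 to 169414 in TG (median 112994). The mean log2 level was 13.0 ± 3.8 in NTG and 15.5 ± 2.8 in TG (SD, n = 16 and 19), a difference of 2.57 (2-sided permutation test, p = 0.0299). In the animals of ZT0 and ZT12 alone the difference was 2.39 (permutation test, p = 0.101). More TG than NTG libraries thus had the high level, though both levels occurred in both groups.

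All 20 choroid plexus markers had positive differences, with a median of 1.77, and none was called. Their summed level ran from 7494 to 259160 in NTG (median 64070) and from 8790 to 275670 in TG (median 206713). Aqp1, Slc4a5, Slco1a5, Steap1 and Tmem72 were at 0 in at least one library, and 5 libraries had such a marker. Kl, which encodes klotho, measured 646 to 9071 in NTG (median 1940) and 657 to 9154 in TG (median 5622). Its difference was 1.21 ± 0.45 (limma adjusted p = 0.56), and 0.30 with the Ttr level in the model. Ependymal genes of the ventricle lining were positive in 12 of 12, with a median of 0.34 that became 0.11, and meningeal genes in 14 of 15, with 0.26 that became 0.18.

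**Figure D3:**
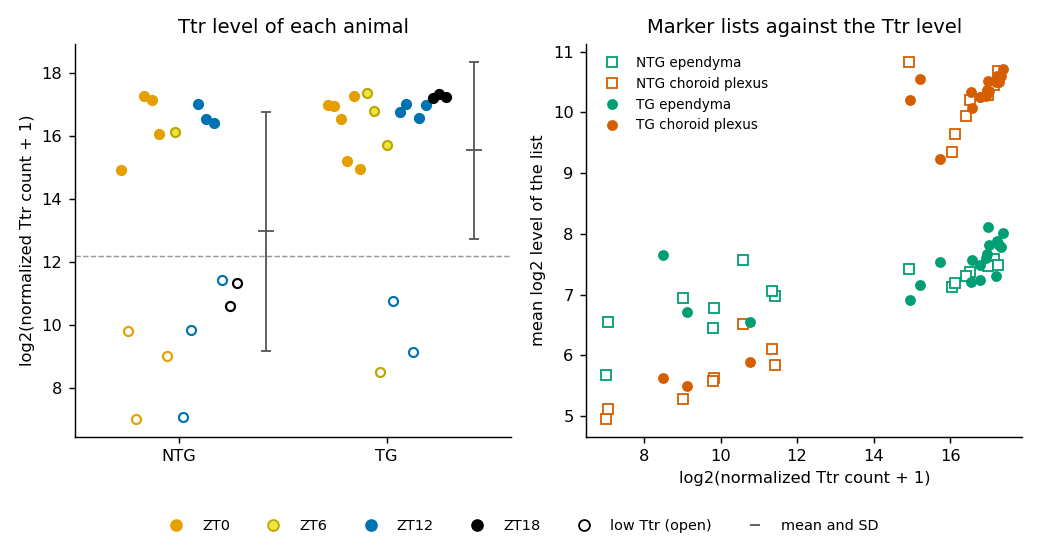
Left, log2(normalized Ttr count + 1) of each animal (y axis) by genotype, coloured by time, open below the dashed midpoint of the range, with mean and SD. Right, mean log2 level of the choroid plexus and ependyma lists (y axis) against the Ttr level (x axis), 1 point per animal and list; 8 NTG and 3 TG animals form the low cluster.

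With the Ttr level as a covariate 22 genes were called (0.154%), 17 higher and 5 lower, and 20 of them were among the 24. Luzp2, Ttyh1, Dusp4 and Fam163a were no longer called, with adjusted p of 0.067, 0.16, 0.083 and 0.23. Their differences were -0.29, -0.13, -0.32 and -0.33, against -0.30, -0.16, -0.33 and -0.38 without the covariate. Ptpn6, a phosphatase of microglia and other immune cells, was called with 0.42 ± 0.09 (limma adjusted p = 0.035). Nrarp, Apln, Dio2, Crhbp and Dusp6 stayed called, at -0.47, -0.37, -0.37, -0.46 and -0.43. With the mean choroid plexus level as covariate in place of Ttr the Dusp6 call ended too (-0.41, limma adjusted p = 0.053). Of the higher genes, Stard4, Insig1 and Idh1 stayed called with the Ttr level as covariate, at 0.65, 0.35 and 0.28.

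The Ttr level itself was called in 490 genes (3.44%), 446 rising with it and 44 falling, and in none of the 24. Of 578 genes higher at an unadjusted p under 0.05, Ttr left out, 195 (33.7%) stayed so with the covariate, and their median difference, over all 578, went from 0.31 to 0.19. Of 392 lower ones 195 (49.7%) stayed, and the median went from -0.16 to -0.14. In the 16 TG and 8 NTG animals with high Ttr 15 genes were called (0.105%), all of them among the 24, 11 higher (0.0771%) and 4 lower (0.0281%). The lower genes were Nrarp, Apln, Dio2 and Dusp4, at -0.44 ± 0.08, -0.44 ± 0.07, -0.46 ± 0.09 and -0.39 ± 0.08. In the 3 TG and 8 NTG animals with low Ttr only Thy1 was called, and 183 genes had an unadjusted p under 0.05. Only ZT12 held low-Ttr animals of both genotypes, 2 TG and 3 NTG. With time in the model the low-Ttr differences rest on these animals. In this low-Ttr fit Nrarp had -0.42 ± 0.15, Crhbp -0.53 ± 0.23, Luzp2 -0.46 ± 0.17 and Dusp6 -0.29 ± 0.16. Apln (-0.10 ± 0.23), Dio2 (-0.03 ± 0.17), Dusp4 (-0.05 ± 0.18), Ttyh1 (-0.10 ± 0.11) and Fam163a (-0.13 ± 0.23) had smaller values than over all animals. At ZT12, with high and low Ttr together, these genes had -0.33, -0.23, -0.28, -0.13 and -0.30 in the same order. A difference between high- and low-Ttr animals was not tested, and in the low-Ttr values the Ttr level and time cannot be told apart.

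List medians with the covariate kept their sign for the lists described above except those of cholesterol export (-0.01) and the Notch pathway (-0.01). The ERK feedback median was -0.12, that of immediate early genes -0.22, of astrocyte markers -0.12 and of precursor markers -0.07. The interferon median was 0.18, the complement median 0.13 and that of plaque-induced genes 0.08. Microglial markers were positive in 13 of 13 with a median of 0.11. Markers of striatum, a neighbouring region, were positive in 10 of 11 (median 0.16) and in 11 of 11 with the covariate (0.23), and those of thalamus and habenula were negative in 8 of 11 (median -0.14, and -0.20 with it). The part of these regions in the results was not tested.

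**Figure D4:**
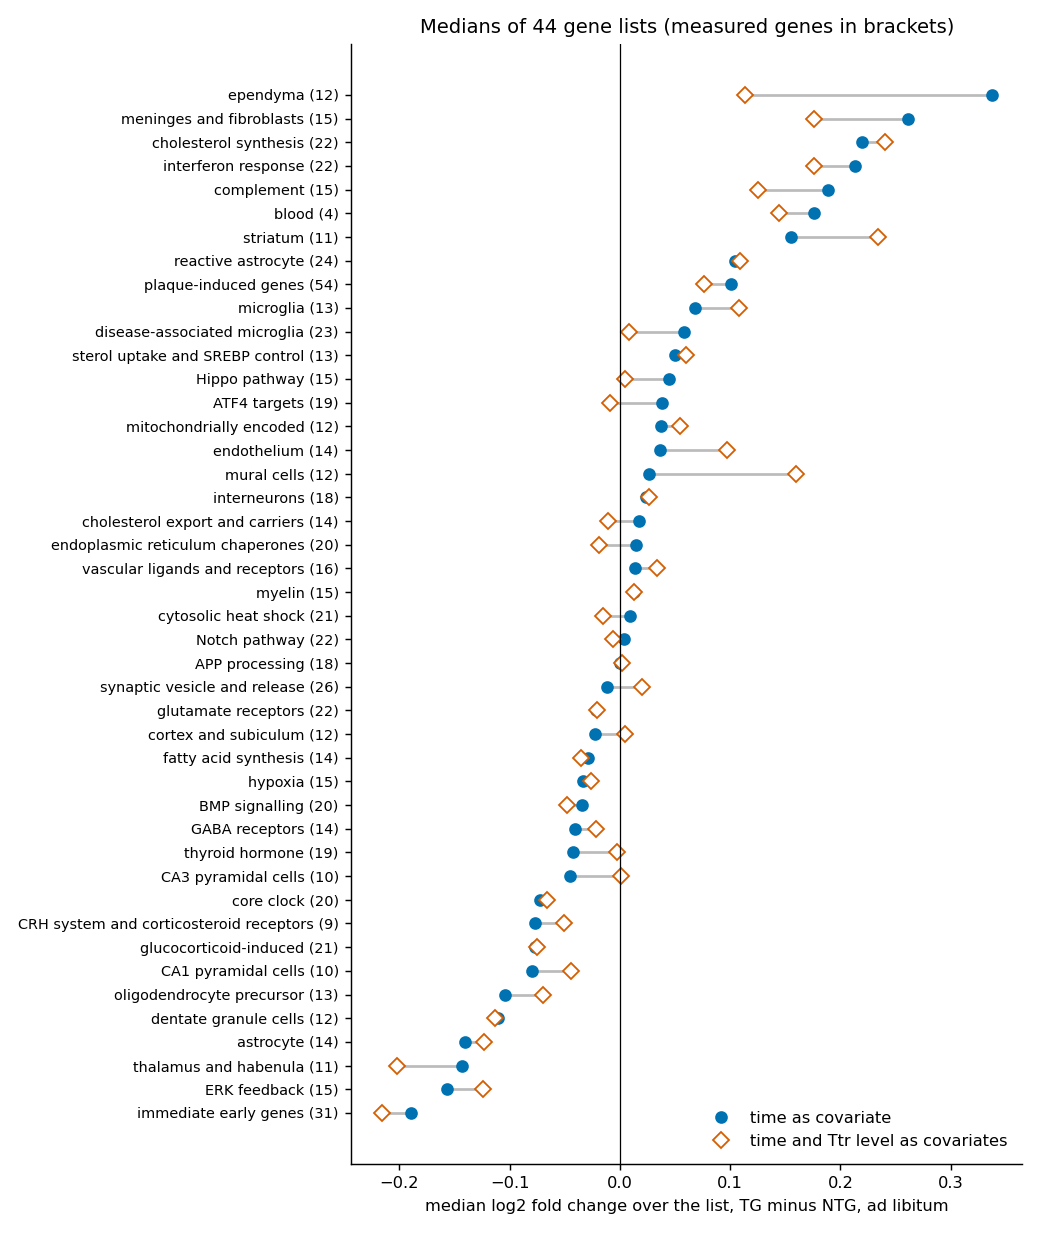
Median log2 fold change, TG minus NTG (x axis), of each gene list but choroid plexus, with time as covariate (blue points) and with time and the Ttr level (open orange diamonds); measured genes in brackets. The ependyma median moves from 0.34 to 0.11, while those of immediate early genes, ERK feedback and astrocytes stay below 0.

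At ZT0 alone 6 genes were called (0.0421%). Thy1, Sqle and Fdft1 were among the 4 higher genes (0.0281%), and Nrarp and Dio2 were lower (0.014%). At ZT12 alone 7 were called (0.0491%), none of them lower. By limma's test the difference between the 2 times was called in 0 of 14260 genes, with 297 at an unadjusted p under 0.05. All 24 genes had the same sign at both times, but they were called in a fit that included these same animals. Dio2 measured 2795 ± 486 in NTG (SD, n = 7) and 1859 ± 279 in TG (SD, n = 6) at ZT0, and 2148 ± 323.3 and 1835 ± 304.3 (SD, n = 6 each) at ZT12. Its genotype difference was -0.59 at ZT0 and -0.23 at ZT12. Dusp6 measured 2440.5 ± 355 in NTG and 1639 ± 400 in TG at ZT0, and 1776 ± 222 and 1517 ± 292 at ZT12 (SD, same n). The Dusp6 difference was -0.60 at ZT0 and -0.24 at ZT12. For both genes the NTG mean was lower at ZT12 than at ZT0 and the TG means differed less between the times.

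Among the lists the immediate early median was -0.36 at ZT0 and -0.01 at ZT12, and the interferon median 0.44 at ZT0 and 0.06 at ZT12. The difference between times was called for no member of either list. All 4 libraries that stand apart come from ZT0. Without them 4 TG and 5 NTG animals remained at that time, 3 genes were called, and these medians were -0.28 and 0.55. The ZT0 animals also differed in Ttr, with 3 of 7 NTG and 0 of 6 TG animals low, and in meningeal markers, whose median was 0.71 at ZT0 and 0.11 at ZT12. Their part in the ZT0 values was not tested.

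Separate animals on restricted feeding gave the same contrast a second time, from a fit of all 4 groups with shared time terms and variances. There 19 genes were called (0.133%), 14 higher and 5 lower, and all 24 genes had the same sign as on ad libitum feeding. Of the 15 higher genes 12 were called on TRF, and of the 9 lower genes Crhbp (-0.39 ± 0.07, limma adjusted p = 2.8e-04) and Luzp2 (-0.37 ± 0.07, limma adjusted p = 0.0023). Idh1 and Insig1 were higher by 0.21 and 0.29 without passing the test. Nrarp had -0.25 ± 0.06 on TRF (limma adjusted p = 0.13), Apln -0.14 ± 0.08, Dio2 -0.21 ± 0.08 and Dusp6 -0.05 ± 0.09. The genotype difference itself was called as different between feedings in 0 of 14260 genes by limma's test, with 745 at an unadjusted p under 0.05. For Nrarp that difference, ALF minus TRF, was -0.24 ± 0.09 (limma adjusted p = 0.93), for Apln -0.26 ± 0.11 and for Dusp6 -0.35 ± 0.12, with the same adjusted p.

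On TRF the ERK feedback list again had 2 positive values of 15 (median -0.08), precursor markers 1 of 13 (median -0.16) and astrocyte markers 3 of 14 (median -0.08). Immediate early genes were positive in 22 of 31 on TRF (median 0.04), and interferon genes in 13 of 22 (median 0.02). Core clock genes were positive in 10 of 20 on TRF (median 0.00), and complement genes in 7 of 15 (median -0.05). Choroid plexus markers were positive in 2 of 20 on TRF, with a median of -0.26, and Ttr had -0.05 ± 1.32.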

How the data were processed

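Hippocampal RNA of 35 ad libitum animals was compared, 19 TG against 16 NTG. The other groups entered only the feeding contrast, fitted on all 4 groups together, and an alternative fit of the ad libitum contrast. The authors deposited a normalized expression signal per gene, read counts divided by one factor per library; HISAT2, featureCounts and DESeq2 with build GRCm38 are listed, without versions, per the submitters' processing notes. All values were whole multiples of a step per library within a tolerance of 0.01, taken as 1 read for the depth estimates. The lowest gene mean was 40.9 over all libraries, and the rule that set this minimum is not given in the sources used here.

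Values were analysed as log2(normalized count + 1) with limma 3.58.1 in R 4.3.3 (2-sided, variance trend, robust variances, Benjamini-Hochberg over 14260 genes, threshold 0.05), time as a factor with 4 levels. The Ttr level was compared by a permutation test with 100000 resamples. The 45 gene lists, and the genes and contrasts, were chosen with earlier results of these data known. Lists are described by counts and medians, without a test. Named are all called genes outside cholesterol synthesis, its 3 members of smallest p, and the 4 genes of smallest p in each described list, plus Thy1, App and Ttr; a few genes that this rule names are not reported here. Genes singled out otherwise (Hmgcs1, Ptpn6 and those of the closing section, among them) were chosen after their values were seen. In the feeding contrast 2 libraries of one NTG animal number on TRF were averaged. Locations are from GENCODE M21, which matched 96.2% of symbols. On simulated data for this comparison over 14260 genes, 28% of genes changed 1.15-fold were recovered, 56% at 1.25-fold, 88% at 1.5-fold and 96% at 2-fold, with 2 false calls. Alternatives covered covariates, animals, scaling, pseudocounts, weights and leaving out each animal.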

Additional observations from a re-analysis of the deposited data

How the results depend on the processing

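No paired analysis was possible because the animal numbers are all distinct and no number is shared between the groups. Leaving out each animal gave 21 (without TG_ALF_234) to 35 (without TG_ALF_109) called genes against 24. With array weights 80 genes were called, 37 higher and 43 lower, including all 24, and the cause was not tested. In the animals with high Ttr 15 were called and in those with low Ttr 1, with fewer animals in each fit. Those with low Ttr held both genotypes only at ZT12. At ZT0 the 6 calls became 3 with the Ttr covariate. In the animals of ZT0 and ZT12, 16 genes were called (13 higher, 3 lower), and Ttr differed by 2.39 without passing the test. Lists with a called member numbered 8, 0 in the animals with low Ttr and 4 in those of ZT0 and ZT12. With the myelin or Xist level as covariate, other pseudocounts (0.5 and 10), a mean of at least 200, trimmed-mean scaling, voom weights (added after seeing the data) or no variance trend, all 24 genes passed. The high-Ttr fit and the list values without libraries that stand apart were also added after seeing the data.

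For the called genes named, 51 values under the other alternatives and 16 with 1 animal left out missed the threshold, and none changed sign. With the mean choroid plexus level as covariate Ttr (-0.14) and Cd59a (-0.049) changed sign. The fit of the animals with low Ttr compared the genotypes at ZT12 only. In the 3 TG and 8 NTG animals with low Ttr these uncalled genes changed sign: Nr1h3 -0.053, Apoe 0.0042, Spry4 0.085, Fosl2 0.19, Klf9 0.082, Crhr2 -0.11, Crhr1 0.21, Adm 0.48, Cd55 -0.11, Per2 0.040, Nr1d2 0.0043, Bhlhe40 0.097, Siglech -0.017, Fgfr3 0.074, Sox10 0.029, Lct 0.060, Igf2 -0.20 and Slc6a20a -0.088. List medians were computed for the Ttr covariate, the high-Ttr, the low-Ttr, and the ZT0 and ZT12 animals, both scalings and without the libraries that stand apart. In these they moved by less than the spread between animals but for 10 medians in the animals with low Ttr.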

Other observations

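Without the 4 ZT0 libraries that stand apart, 13 further genes were called, 2 higher and 11 lower. Hbegf, a growth factor that activates the EGF receptor upstream of ERK, had -0.36 ± 0.07 (limma adjusted p = 0.017), and -0.34 with all libraries (limma adjusted p = 0.091). Npy, a peptide of interneurons, had -0.48 ± 0.10 (limma adjusted p = 0.025), and -0.46 with all libraries (limma adjusted p = 0.79). Smyd1, a muscle methyltransferase gene, had -1.02 ± 0.17 (limma adjusted p = 9.7e-04), and Acsbg1, Aldoc and Hsd11b1, described above, were among the 13 as well. Catip, with 0.64 ± 0.14, was among the 2 higher genes.

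Apart from cholesterol synthesis and the 21 lists whose genes are named by the rule, 23 lists held 1 called gene, Crhbp among interneuron markers. Their medians ran from -0.14 for thalamus and habenula to 0.18 for blood. Genes encoded in the mitochondrial genome were positive in 11 of 12 with a median of 0.04, glutamate receptors were negative in 16 of 22 with -0.02, and GABA receptors in 10 of 14 with -0.04. Genes of APP processing divided evenly, with 9 of 18 positive and a median of 0.00.

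On restricted feeding Chrdl1, Jam2 and Wwtr1 were called lower, at -0.54, -0.25 and -0.26, and are not among the 24 genes of the ad libitum contrast.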
